A study of Mus musculus with 12 samples.

Results

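Solute carriers, the Slc genes, are the large group of membrane proteins that carry small molecules such as amino acids, sugars, metal ions, nucleotides and organic acids across the plasma membrane and the membranes of organelles. Members were taken by name: a probe set entered when its only gene symbol in the platform annotation was Slc followed by a number, a letter and a number. This gave 146 genes, and Slc2a1, Slc2a4 and Slc27a1 were left out, so that 143 genes on 176 probe sets remained of 8251 genes named on the array. Each gene was represented by the probe set with the highest mean log2 signal. The 93 genes whose mean signal in at least 1 group reached the median of all values, 496, are described here. They belong to 32 Slc families, which were sorted by family number into 13 substrate classes. Just inside that limit was Slc22a5, with a highest group mean of 516 in subcutaneous adipocytes, and just outside it was Slc7a3, with 471 in intraabdominal stromo-vascular cells. Because the limit asks only for 1 high group, a gene could enter through the group in which it is high.

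Fat from 10 male C57BL/6 mice aged 42 to 49 days was pooled by depot, minced and treated with collagenase (1 mg/ml, 45 min). The subcutaneous depot was flank fat and the intraabdominal depot was epididymal fat. The floating cells of each depot were the isolated adipocytes, and RNA was taken from them directly. The pelleted cells were the stromo-vascular cells, a mixture that holds preadipocytes and other cell types; these were freed of red cells by lysis, plated, and lysed for RNA after 16 h in culture. The 4 groups were thus subcutaneous adipocytes, intraabdominal adipocytes, subcutaneous stromo-vascular cells and intraabdominal stromo-vascular cells, with 3 Affymetrix arrays each and 15 µg of RNA per array. The labels do not say whether the 3 arrays of a group came from separate pools of mice or from 1, so the p-values measure only the spread between these samples, which may be technical. No group carried a transgene, a deletion or a drug treatment in the labels. Cell fraction and culture went together in every comparison of fractions and cannot be told apart.

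A fat cell takes up glucose, amino acids and vitamins through plasma membrane carriers and turns much of the carbon into fatty acid in the cytosol. The citrate carrier of the inner mitochondrial membrane exports the citrate that supplies cytosolic acetyl-CoA for this, and other members of the same family, Slc25, exchange malate, adenine nucleotides, acylcarnitines and other metabolites between mitochondrial matrix and cytosol. Some carriers work as pairs, such as the amino acid exchanger Slc7a5, which reaches the cell surface bound to the heavy chain Slc3a2.

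The labelled cell types were set against marker genes. All 9 adipocyte markers tested were higher in adipocytes than in stromo-vascular cells in both depots. Of the 8 preadipocyte and fibroblast markers 5 were lower in subcutaneous adipocytes and 6 in intraabdominal adipocytes than in the stromo-vascular cells of that depot, and 1 was higher in each. The adipocyte fractions also held signal of other cells: all 9 endothelial markers tested were higher in adipocytes than in stromo-vascular cells in both depots, and the summed signal of the 4 erythroid markers was 18304 to 44954 in subcutaneous and 20703 to 22159 in intraabdominal adipocytes against 612 to 1287 over the 6 stromo-vascular arrays. The ratio of 3' to 5' signal of actin, a measure of RNA breakdown, was 2.35 to 3.10 in subcutaneous adipocytes and 1.71 to 2.24 in intraabdominal adipocytes, against 1.11 to 1.24 over all stromo-vascular arrays. Its part in the differences between fractions was not tested.

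Between adipocytes and stromo-vascular cells, 56 of the 92 solute carriers tested differed in subcutaneous fat, 27 higher and 29 lower in adipocytes, and 47 differed in intraabdominal fat, 25 higher and 22 lower. A gene was called different when its Benjamini-Hochberg adjusted p in limma was under 0.05. Over all 8695 probe sets tested, 52.8% were called in the subcutaneous comparison (23.5% higher, 29.4% lower) and 51.3% in the intraabdominal one (22.4% higher, 29.0% lower), and 60.9% and 51.1% of the solute carriers. The arrays of the fractions did not overlap for 65 solute carriers in subcutaneous and 55 in intraabdominal fat, beside 60.0% and 59.9% of all probe sets. The solute carriers as a whole had a median log2 difference of -0.03 in subcutaneous and 0.08 in intraabdominal fat, beside -0.04 and -0.11 over all probe sets tested. The share called in intraabdominal fat and the share without overlap there lay near those of all probe sets. In bulk samples fewer cells of a type and less RNA per cell cannot be told apart. The 1 described gene not tested, Slc16a7, fell under the filter on mean signal.

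The same 36 genes were called in the same direction in both depots, 20 higher and 16 lower in adipocytes, which was 39.1% of the genes tested beside 39.5% of all probe sets. They made up 64.3% of the calls in subcutaneous fat and 76.6% of those in intraabdominal fat. Only Slc3a2 was called in opposite directions, beside 0.679% of all probe sets. The split in intraabdominal fat moved with scaling: 33 were called higher and 19 lower with arrays centred on their medians, which moved the median over all probe sets from -0.11 to 0.05, and 32 were called higher and 20 lower with quantile normalization.

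**Figure D1:**
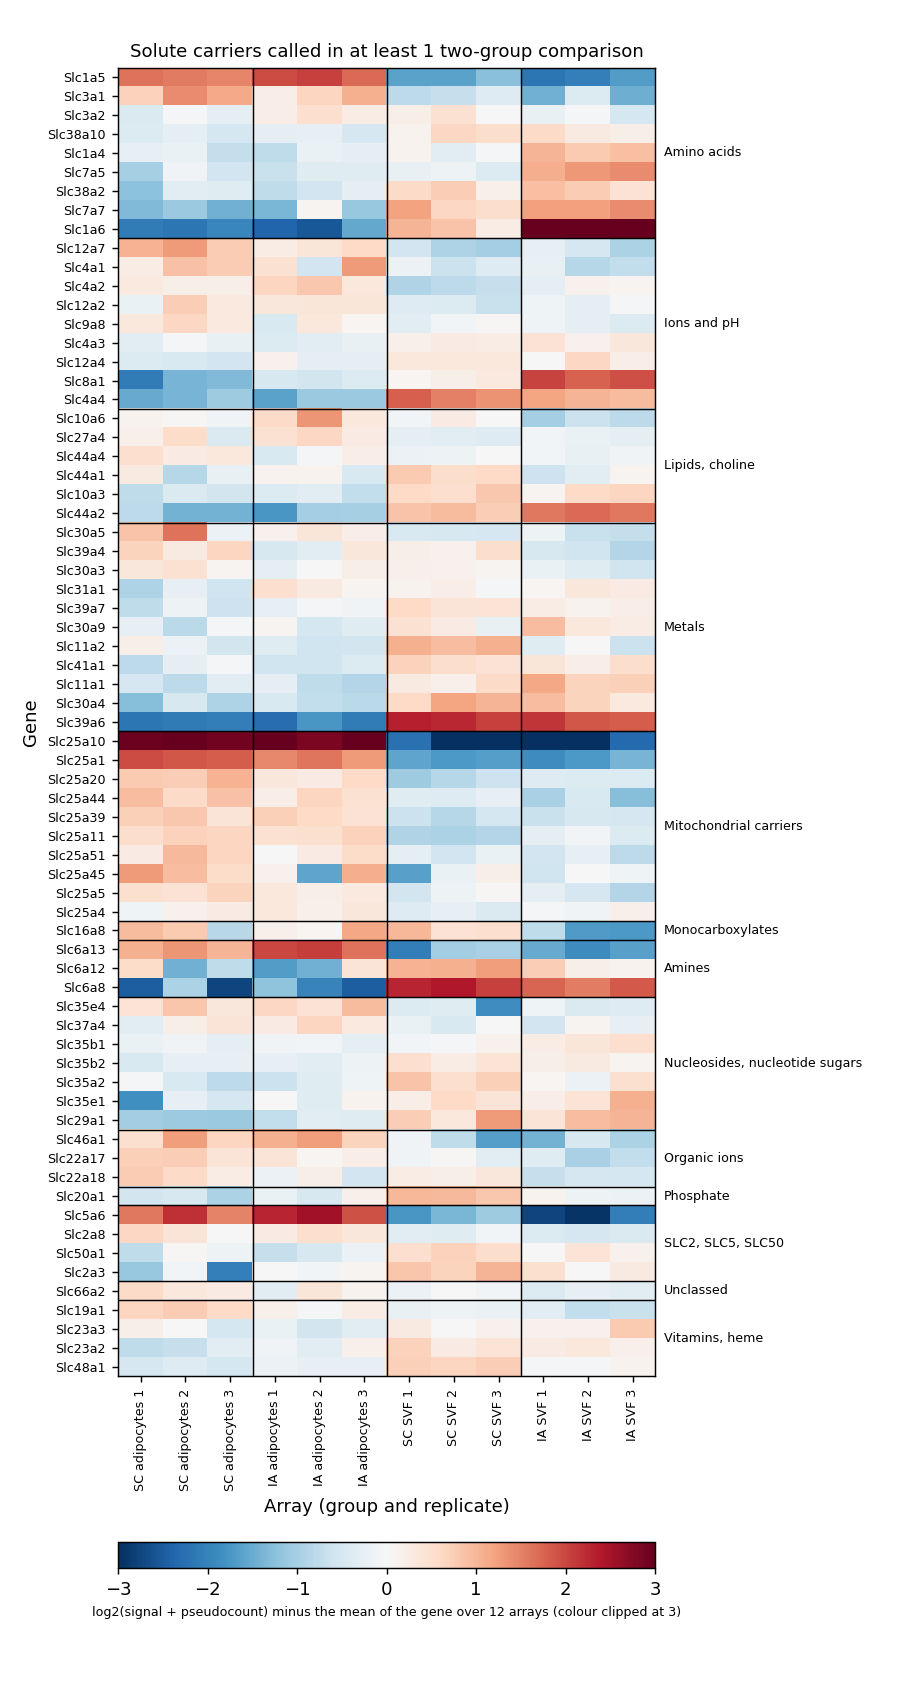
Signal of the 69 solute carriers called in at least 1 of the 4 comparisons of 2 groups (rows, by substrate class) on the 12 arrays (columns, by group and replicate). Colour is log2(signal + pseudocount) minus the mean of that gene over the 12 arrays, from blue (lower) to red (higher), clipped at 3; Slc25a10, Slc25a1, Slc1a5 and Slc5a6 are red on all 6 adipocyte arrays and blue on all 6 stromo-vascular arrays, and Slc39a6, Slc6a8 and Slc4a4 are the reverse.

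The mitochondrial carriers were called in 1 direction. Of 15 tested, 10 were higher in subcutaneous adipocytes and 8 in intraabdominal adipocytes than in stromo-vascular cells, and none was lower in either depot. Their median log2 difference was 0.96 in subcutaneous and 0.80 in intraabdominal fat. Called in either direction were 66.7% and 53.3% of the class, beside 52.8% and 51.3% of all probe sets tested. Of all probe sets 23.5% and 22.4% were called higher and 29.4% and 29.0% lower. With arrays centred on their medians the counts of the class were 10 and 11 higher, with quantile normalization 11 and 10, and again none lower. The 4 brown and thermogenic markers tested, several of which are mitochondrial proteins, were also higher in subcutaneous adipocytes than in stromo-vascular cells, and 2 of the 4 in intraabdominal adipocytes; their part was not tested.

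The promoters of the 2 mitochondrial carriers with the largest differences are printed first, since they belong to the same class and differed in the same direction. They are the 250 bases before the annotated start, from RefSeq on build GRCm38.p6, 5′ to 3′ on the strand of the gene: Slc25a1 at chr16:17928220-17928469 (minus strand) and Slc25a10 at chr11:120491587-120491836 (plus strand). Capitals mark matches, on either strand, to any of 4 motifs. The first is the E-box, spelled CACGTG and the same on both strands. The second is the sterol regulatory element of lipid genes, spelled TCACNCCAC. The third is the CCAAT box, whose name is its spelling and which reads ATTGG on the other strand. The last is the amino acid response element, which is bound by Atf4 and is spelled TGATGNAA.

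Slc25a1: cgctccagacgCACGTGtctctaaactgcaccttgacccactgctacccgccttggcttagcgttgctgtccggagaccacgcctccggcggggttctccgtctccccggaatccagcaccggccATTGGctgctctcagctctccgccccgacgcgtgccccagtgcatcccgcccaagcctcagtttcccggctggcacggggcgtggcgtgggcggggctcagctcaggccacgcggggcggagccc

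Slc25a10: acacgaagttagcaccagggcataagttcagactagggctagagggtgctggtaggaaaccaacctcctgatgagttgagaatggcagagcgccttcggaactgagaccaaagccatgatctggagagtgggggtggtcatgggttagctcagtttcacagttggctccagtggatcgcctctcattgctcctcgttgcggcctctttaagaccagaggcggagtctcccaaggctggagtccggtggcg

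The Slc25a1 window held 1 E-box, 239 bases before the start, and 1 CCAAT box, 125 bases before it. In the Slc25a10 window these letters were not found. Of all 32851 promoter windows of this length 6.02% held the E-box, 1.05% the sterol element, 33.8% the CCAAT box and 3.45% the amino acid response element. Windows were found for 75 of the 93 genes, 111 windows in all, and 9.91%, 2.7%, 23.4% and 3.6% of them held the 4 motifs in that order. A match is a description of letters only.

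Slc25a10, the dicarboxylate carrier, which exchanges malate or succinate for phosphate, had the largest difference in the adipocyte direction of all solute carriers tested. Its signal was 14671, 15537 and 14369 in subcutaneous adipocytes and 15448, 13600.3 and 15139 in intraabdominal adipocytes. In stromo-vascular cells it was 366, 143 and 192 in the subcutaneous and 148, 155 and 344 in the intraabdominal depot. Every adipocyte array lay far above every stromo-vascular array, and the depots overlapped within each fraction. The difference was 57.6-fold (adjusted p = 3.80e-10) in subcutaneous fat and 61.0-fold (adjusted p = 2.87e-10) in intraabdominal fat; folds here are on the scale of signal plus a pseudocount of 40.09 and understate the change of a dim gene.

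Slc25a1, the citrate carrier, read 51795, 47872 and 46732 in subcutaneous adipocytes and 35943, 40327 and 32352 in intraabdominal adipocytes. Its signal was 4373, 3969.6 and 4159.6 in subcutaneous and 3552, 3990.0 and 4988 in intraabdominal stromo-vascular cells. All adipocyte arrays were higher than all stromo-vascular arrays (11.6-fold, adjusted p = 2.45e-11 in subcutaneous fat, 8.65-fold, adjusted p = 7.63e-11 in intraabdominal fat). The 3 subcutaneous adipocyte arrays also lay above the 3 intraabdominal ones, but this difference of 0.43 ± 0.13 (log2, standard error) did not pass (adjusted p = 0.0576), while a second probe set of the gene did (log2 0.68, adjusted p = 0.0218). Between fractions it gave calls of the same sign as the first in both depots.

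Slc25a20, which brings acylcarnitines into the matrix for fatty acid oxidation, read 4725, 4607 and 5666 in subcutaneous and 3509.7, 3268 and 4176 in intraabdominal adipocytes, against 1296, 1509 and 1760.0 and 2095, 2068 and 2057 in the stromo-vascular cells of these depots. The groups of a depot did not overlap, and the difference was 3.24-fold in subcutaneous and 1.74-fold in intraabdominal fat (adjusted p = 2.13e-07 and 0.000375). Slc25a11, the oxoglutarate and malate carrier of the malate-aspartate shuttle, was 2.88-fold higher in subcutaneous and 1.75-fold higher in intraabdominal adipocytes (adjusted p = 1.73e-07 and 0.000106). Its 3 subcutaneous stromo-vascular arrays were the lowest of all, at 1391, 1351 and 1415.

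The same direction held for Slc25a39, a carrier of glutathione into mitochondria (2.49-fold and 2.20-fold), and Slc25a44, a carrier of branched-chain amino acids (2.18-fold and 2.51-fold), in subcutaneous and intraabdominal fat respectively. Slc25a51, which carries NAD, was higher by 1.95-fold and 1.74-fold, and its second probe set was called too. Of the ADP/ATP carriers, Slc25a5 was 1.68-fold and 1.75-fold higher on a probe set whose suffix marks it as shared within a gene family; of its other 2 probe sets 1 was called in the same direction in both depots (adjusted p = 0.0289 and 0.0168) and 1 in neither (0.816 and 0.898). For the mean over its probe sets adjusted p was 0.221 in place of 0.00213 in subcutaneous fat and 0.0952 in place of 0.00122 in intraabdominal fat. Slc25a4 passed in subcutaneous fat (1.36-fold, adjusted p = 0.00815) and not in intraabdominal fat (adjusted p = 0.0775). Slc25a45 passed in subcutaneous fat (2.77-fold, adjusted p = 0.0449), but the call was lost when any 1 of 5 of the 6 arrays was left out (adjusted p 0.0541 to 0.21; log2 0.93 in place of 1.47 without stromo-vascular array 1).

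The other 5 mitochondrial or peroxisomal carriers passed in no comparison. They were Slc25a15 (ornithine), Slc25a17 (peroxisomal cofactors), Slc25a25 (ATP-magnesium), Slc25a28 (iron) and Slc25a36 (pyrimidine nucleotides). Slc25a36 read 3422 ± 1122 (SD, n = 3) in subcutaneous adipocytes and 3375 ± 214 in subcutaneous stromo-vascular cells, a log2 difference of -0.03 with a 95% interval of -0.41 to 0.35.

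**Figure D2:**
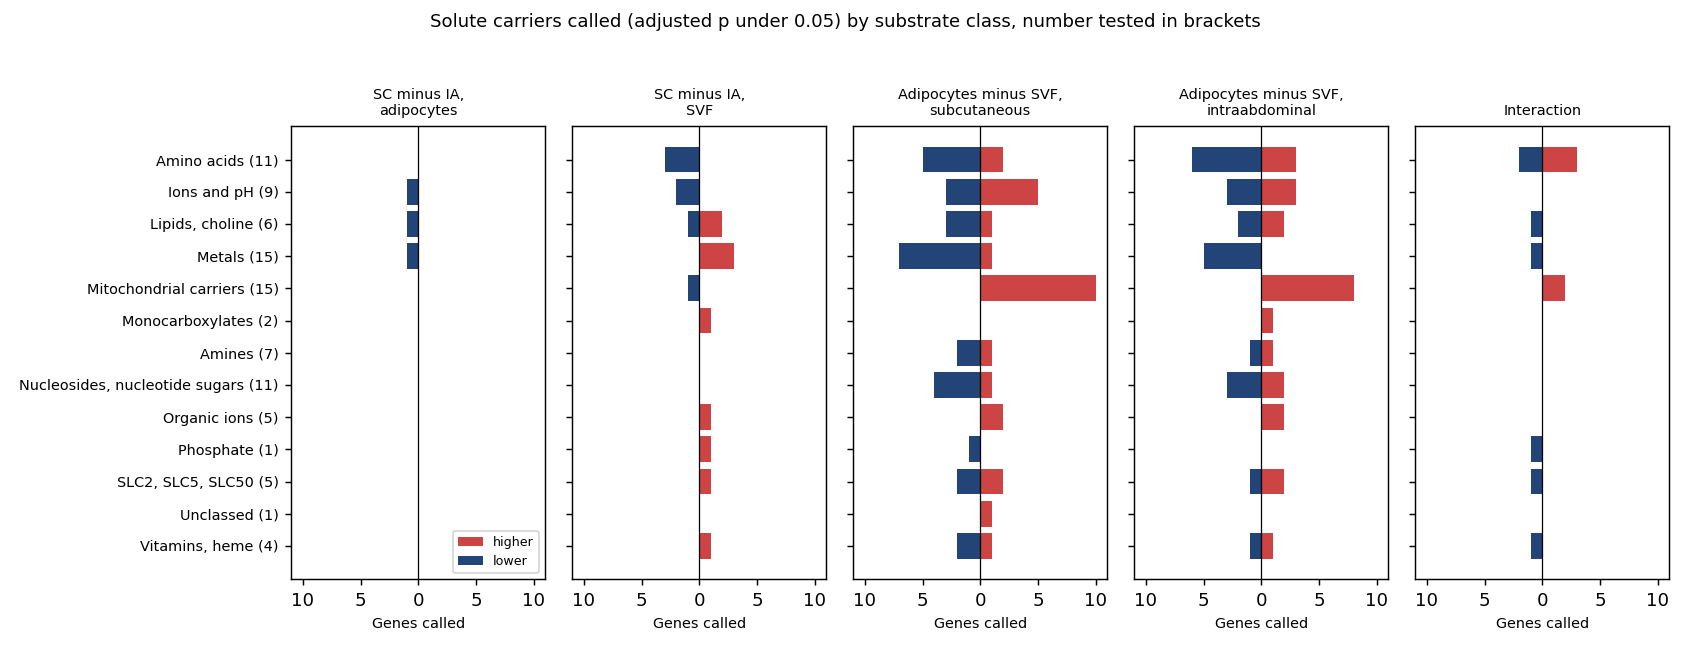
Number of solute carriers called (horizontal axis, higher to the right in red, lower to the left in blue) in each substrate class (vertical axis, number tested in brackets) for the 4 comparisons of 2 groups and the interaction. In the mitochondrial class all 10 calls in subcutaneous and all 8 in intraabdominal fat lie on the side of adipocytes, and in the metal class 7 of 8 and 5 of 5 calls lie on the side of stromo-vascular cells.

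Amino acid carriers differed in both directions. Of 11 tested, 2 were called higher and 5 lower in subcutaneous adipocytes than in stromo-vascular cells, and 3 were called higher and 6 lower in intraabdominal adipocytes. Slc1a5, which exchanges glutamine and other neutral amino acids, was the amino acid carrier with the largest difference in the adipocyte direction. Its signal was 20164, 19212 and 18231 in subcutaneous and 25363, 27181 and 21368 in intraabdominal adipocytes, and 2107, 2114 and 2723 and 1428, 1549 and 2013 in the stromo-vascular cells of the same depots. Adipocyte and stromo-vascular arrays did not overlap (8.22-fold, adjusted p = 5.06e-10 in subcutaneous fat, 14.6-fold, adjusted p = 3.32e-11 in intraabdominal fat).

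Slc1a6, a glutamate transporter best known from neurons, had the opposite pattern. It read 69.5, 64.0 and 80.6 in subcutaneous and 49.6, 39.7 and 120.1 in intraabdominal adipocytes, 911, 803 and 501 in subcutaneous and 5827, 4799.9 and 5575 in intraabdominal stromo-vascular cells. The intraabdominal stromo-vascular arrays stood above all others and the subcutaneous ones lay between these and the adipocytes. The difference was 6.81-fold (adjusted p = 2.55e-06) in subcutaneous and 51.8-fold (adjusted p = 1.05e-09) in intraabdominal fat.

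Lower in the adipocytes of both depots were also Slc7a7, an exchanger of cationic for neutral amino acids (4.22-fold and 4.28-fold), and Slc38a2, a sodium-coupled carrier of neutral amino acids (2.20-fold and 2.34-fold). Slc38a2 has 4 probe sets; the mean over them was too dim to be tested. Slc38a10 was 1.77-fold and 1.60-fold lower, but the mean over its 2 probe sets gave a log2 difference of 0.12 (adjusted p = 0.68) in subcutaneous fat, in place of -0.82, and the intraabdominal call was lost too (adjusted p = 0.0768). Slc3a1, the heavy chain of the cystine transporter, was higher in adipocytes, 3.27-fold in subcutaneous and 3.33-fold in intraabdominal fat.

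The exchanger Slc7a5, which carries large neutral amino acids such as leucine, was lower in adipocytes in intraabdominal fat (3.31-fold, adjusted p = 3.65e-06) and did not pass in subcutaneous fat (adjusted p = 0.224). Slc1a4, a carrier of alanine, serine and cysteine, did the same (2.48-fold, adjusted p = 8.08e-05 against adjusted p = 0.257). Their values by array are given with the depots below. Slc3a2, the heavy chain that pairs with Slc7a5, read 7525, 9953 and 8451 in subcutaneous and 11549.5, 14437 and 11722 in intraabdominal adipocytes, and 11523, 13843 and 9987 and 8653, 9659.9 and 6978 in the stromo-vascular cells. It was lower in subcutaneous adipocytes (1.36-fold, adjusted p = 0.0316) and higher in intraabdominal adipocytes (1.49-fold, adjusted p = 0.00735). The subcutaneous call was lost without adipocyte array 1 or 3 or stromo-vascular array 1 or 2 (adjusted p 0.0646 to 0.151), and with median centring (0.0537).

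Genes of the amino acid response, the program run by the factor Atf4 when amino acids are short and known to include several of these carriers among its targets, were read beside them. Of 18 such genes tested, 4 were called higher and 7 lower in subcutaneous adipocytes than in stromo-vascular cells, and 5 were called higher and 6 lower in intraabdominal adipocytes. Mthfd2, a mitochondrial folate enzyme, was lower in adipocytes (log2 -2.62 ± 0.20 and -3.42 ± 0.20), as was Asns, asparagine synthetase (-0.73 ± 0.12 and -1.25 ± 0.12). Atf3, a stress-induced factor, was higher in adipocytes (2.72 ± 0.27 and 3.02 ± 0.27). The list thus did not differ in 1 direction.

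Among carriers that the family number places with sugars, Slc5a6 differed most. It is the sodium-dependent multivitamin transporter, which carries biotin and pantothenate; biotin is the cofactor of the carboxylases of fatty acid synthesis. Its signal was 2400.0, 3689.5 and 2264 in subcutaneous and 3949, 4629.9 and 3028 in intraabdominal adipocytes. In stromo-vascular cells it was 206, 276 and 351 in the subcutaneous and 81.1, 65.7 and 155 in the intraabdominal depot. No adipocyte array overlapped a stromo-vascular one, and the difference was 8.83-fold (adjusted p = 3.02e-07) in subcutaneous and 28.4-fold (adjusted p = 2.80e-09) in intraabdominal fat.

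Of the hexose carriers described, Slc2a8 was higher in adipocytes in both depots (1.52-fold and 1.76-fold; in intraabdominal fat the mean over its 2 probe sets had adjusted p = 0.0982). Slc2a3, a glucose transporter of high affinity, was 3.77-fold lower in subcutaneous adipocytes (adjusted p = 0.000547), at 209.8, 478 and 92.7 against 932, 825 and 1058, and did not pass in intraabdominal fat (adjusted p = 0.613). Its second probe set did not pass in subcutaneous fat (log2 -0.04, adjusted p = 0.945), and the mean of both gave -0.98 in place of -1.92 (0.0243). The sugar carrier Slc50a1 was lower in adipocytes (1.82-fold and 1.54-fold). Its intraabdominal call was lost without adipocyte array 1 (adjusted p = 0.0777) or stromo-vascular array 2 (0.078), and with median centring (0.0813) or quantile normalization (0.0548). Slc2a5, the fructose transporter, passed in neither depot (adjusted p = 0.0511 and 0.689).

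Of 7 carriers of amines and neurotransmitters tested, 3 passed in subcutaneous fat and 2 in intraabdominal fat. Slc6a13, a transporter of GABA and taurine, read 4175, 4996 and 4040.4 in subcutaneous and 7971, 8331 and 6149.8 in intraabdominal adipocytes. Its stromo-vascular signals were 438, 932 and 978 and 664, 497 and 603. All adipocyte arrays were above all stromo-vascular arrays (5.68-fold, adjusted p = 7.75e-07 in subcutaneous fat, 11.9-fold, adjusted p = 1.63e-08 in intraabdominal fat). Slc6a8, the creatine transporter, showed the reverse.

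Slc6a8 read 77.4, 300.4 and 57.7 in subcutaneous and 244, 122 and 77.9 in intraabdominal adipocytes, and 3167, 3439 and 2687 and 2163, 1872 and 2296 in subcutaneous and intraabdominal stromo-vascular cells. It was lower in adipocytes by 19.8-fold (adjusted p = 4.97e-07) in subcutaneous and 12.2-fold (adjusted p = 3.07e-06) in intraabdominal fat, with no overlap. The mean over its probe sets gave smaller log2 differences, -1.86 in place of -4.31 and -2.14 in place of -3.61. Slc6a12, a betaine and GABA transporter, was 3.18-fold lower in subcutaneous adipocytes (adjusted p = 0.0202); this call was lost without adipocyte array 2 or 3 or stromo-vascular array 3 (adjusted p 0.0553 to 0.091). The taurine transporter Slc6a6 passed in neither depot (adjusted p = 0.74 and 0.158), nor did Slc6a9, a glycine transporter (adjusted p = 0.728 and 0.501), Slc6a18 or the serotonin transporter Slc6a4.

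**Figure D3:**
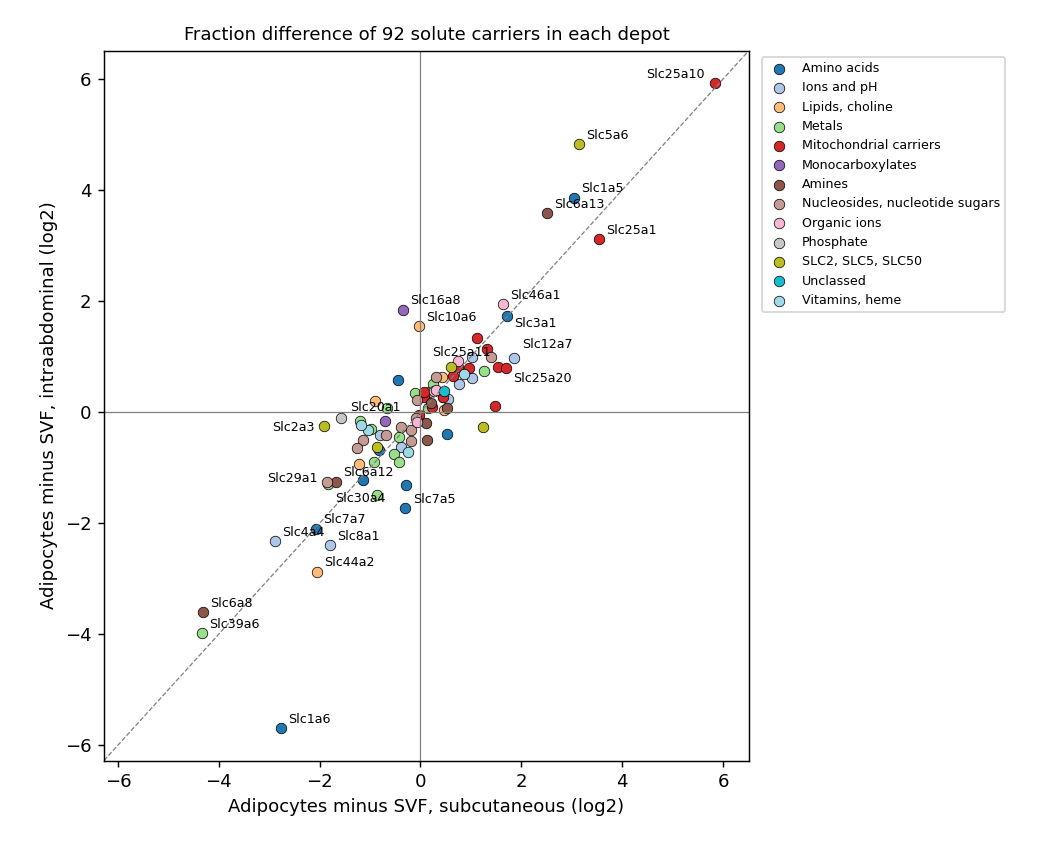
Difference between adipocytes and stromo-vascular cells (log2) of the 92 solute carriers tested, in subcutaneous fat (horizontal) and intraabdominal fat (vertical), coloured by substrate class; the dashed line marks equal differences and genes beyond 1.5 in either depot are named. Slc25a10 lies at 5.85 and 5.93, Slc5a6 at 3.14 and 4.83, Slc39a6 at -4.34 and -3.98 and Slc1a6 at -2.77 and -5.70.

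Metal carriers were called mostly in the direction of stromo-vascular cells. Of 15 tested, 7 were lower and 1 higher in subcutaneous adipocytes, and 5 were lower and none higher in intraabdominal adipocytes. Called in either direction were 53.3% of the class in subcutaneous and 33.3% in intraabdominal fat, beside 52.8% and 51.3% of all probe sets tested. Of all probe sets 29.4% and 29.0% were called lower. In intraabdominal fat the split of the class depended on scaling: with median centring or quantile normalization 4 were lower and 3 higher. Slc39a6, which brings zinc into the cell, read 241, 252 and 262 in subcutaneous and 222, 339 and 259 in intraabdominal adipocytes. In stromo-vascular cells its signal was 6321, 6102 and 5234 in the subcutaneous and 5603, 4571 and 4458 in the intraabdominal depot. The fractions were far apart on every array (20.2-fold, adjusted p = 6.58e-11 and 15.8-fold, adjusted p = 1.33e-10).

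Slc30a4, which moves zinc into vesicles or out of the cell, was lower in adipocytes by 3.55-fold in subcutaneous and 2.45-fold in intraabdominal fat; in the former the mean over its probe sets gave a log2 difference of -1.20 in place of -1.83. Slc11a1, a metal transporter of macrophage phagosomes, was lower by 1.83-fold and 2.82-fold, and the magnesium carrier Slc41a1 by 1.89-fold and 1.86-fold. Beside Slc11a1, 5 of 11 macrophage markers were lower and 4 higher in subcutaneous adipocytes, and 7 were lower and 4 higher in intraabdominal adipocytes; their part in its difference was not tested. Slc11a2, the ferrous iron carrier, was lower in subcutaneous adipocytes (2.30-fold, adjusted p = 0.000188), as were the zinc carrier Slc39a7 (1.97-fold) and the copper carrier Slc31a1 (1.59-fold), and none of these passed in intraabdominal fat (adjusted p = 0.541, 0.101 and 0.754). A second probe set of Slc31a1 did not pass in subcutaneous fat (log2 -0.40, adjusted p = 0.0565) and was higher in intraabdominal adipocytes (0.54, adjusted p = 0.0134).

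The metal carrier higher in subcutaneous adipocytes was Slc30a5, a zinc carrier of the secretory pathway, at 1647, 2846 and 786 against 638, 624 and 624 (2.38-fold, adjusted p = 0.00589). Adipocyte array 2 stood far above the other 2, and without it the log2 difference was 0.82 in place of 1.25. The probe set carries a suffix for an incomplete set of probes, its other probe set pointed the other way, and the mean of both gave adjusted p = 0.38. In intraabdominal fat the main probe set did not pass (adjusted p = 0.0811) and the other was lower in adipocytes (log2 -0.89, adjusted p = 0.0264). Slc30a9 was lower in intraabdominal adipocytes (1.69-fold, adjusted p = 0.04), a call lost without adipocyte array 2 or 3 or stromo-vascular array 1 or 2 (adjusted p 0.0565 to 0.177), and with median centring (0.111) or quantile normalization (0.111). The zinc carriers Slc39a1, Slc39a3, Slc39a8 and Slc39a9 passed in no comparison.

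Of 10 other genes of iron and zinc handling, 7 were called higher and 3 lower in subcutaneous adipocytes, and 6 were called higher and 2 lower in intraabdominal adipocytes. Metallothionein 2 (Mt2), which binds zinc and copper, was higher in adipocytes (log2 0.84 ± 0.16 in subcutaneous and 3.41 ± 0.16 in intraabdominal fat), and so was Cp, the copper protein ceruloplasmin (2.61 ± 0.22 and 2.81 ± 0.22). Hmox1, the heme-degrading oxygenase, was lower in adipocytes (-3.39 ± 0.17 and -1.87 ± 0.17). Beside Hmox1, the heme carrier Slc48a1 was lower in subcutaneous adipocytes (2.25-fold, adjusted p = 5.01e-07) and did not pass in intraabdominal fat (adjusted p = 0.108).

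Carriers of inorganic ions and acid-base equivalents were split. Of 9 tested, 5 were called higher and 3 lower in subcutaneous adipocytes and 3 were called higher and 3 lower in intraabdominal adipocytes. Slc4a4, a sodium bicarbonate cotransporter, read 327, 354 and 455 in subcutaneous and 303, 443 and 440.0 in intraabdominal adipocytes, and 3590.2, 2936 and 2609 and 2324, 2079.5 and 1956 in stromo-vascular cells. It was lower in adipocytes in both depots with no overlap (7.37-fold, adjusted p = 2.14e-08 and 5.01-fold, adjusted p = 2.17e-07). The chloride and bicarbonate exchanger Slc4a2 was higher (2.02-fold and 1.53-fold), as was Slc12a7, a potassium chloride cotransporter (3.64-fold and 1.96-fold).

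Slc12a4, the related potassium chloride cotransporter, was lower in subcutaneous adipocytes (1.74-fold, adjusted p = 0.00115). Slc12a2, the sodium potassium chloride cotransporter, was higher there (1.69-fold, adjusted p = 0.00722). Slc9a8, an organelle sodium proton exchanger, was higher there too (1.46-fold, adjusted p = 0.0342), a call lost without adipocyte array 2 or stromo-vascular array 1 or 2 (adjusted p 0.0649 to 0.131). None of these passed in intraabdominal fat, where Slc4a3 was lower (1.55-fold, adjusted p = 0.00389).

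Slc4a1, the anion exchanger of red cells, was higher in the adipocytes of both depots (2.03-fold, adjusted p = 0.0411 and 1.99-fold, adjusted p = 0.0467). It is itself 1 of the 4 erythroid markers whose summed signal is given above for each fraction, and the pelleted cells alone had gone through red cell lysis. The part of red cells and of this lysis in its difference was not tested. Both calls were lost when any of several single arrays was left out (adjusted p 0.0554 to 0.121 in subcutaneous fat, without adipocyte array 2 or 3 or any stromo-vascular array, and 0.104 to 0.239 in intraabdominal fat, without adipocyte array 1 or 3 or stromo-vascular array 2 or 3). Without intraabdominal adipocyte array 3 its log2 difference was 0.55 in place of 0.99.

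Pumps, channels and fat carriers outside the Slc family were read beside these. Of 14 tested, 7 were called higher and 3 lower in subcutaneous adipocytes and 8 were called higher and 4 lower in intraabdominal adipocytes. The water channel Aqp1 read 4954 ± 1692 in subcutaneous adipocytes and 37.0 ± 16 in subcutaneous stromo-vascular cells (log2 5.99 ± 0.28, adjusted p = 2.31e-10); it is also known from red cells and endothelium, whose markers were higher in adipocytes, and their part was not tested. Cd36, a fatty acid receptor, was higher by 6.04 and 4.44 and Abcd2, a peroxisomal fatty acid carrier, by 4.76 and 6.94 on the log2 scale.

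Of 6 carriers of choline, bile acid type and fatty acid substrates tested, 1 was higher and 3 lower in subcutaneous adipocytes and 2 were called higher and 2 lower in intraabdominal adipocytes. Slc44a2, a choline transporter-like protein, read 523, 325 and 326 in subcutaneous and 253, 441 and 447 in intraabdominal adipocytes, against 1735, 1849 and 1593 and 2873, 3119.9 and 2905 in stromo-vascular cells. The fractions did not overlap (4.17-fold, adjusted p = 3.05e-06 and 7.33-fold, adjusted p = 8.77e-08). Slc10a3 was also lower in adipocytes (2.33-fold and 1.92-fold). The choline transporter Slc44a1 was lower in subcutaneous adipocytes (1.88-fold, adjusted p = 0.0101, or adjusted p = 0.0536 without adipocyte array 2).

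Slc44a4 was higher in subcutaneous adipocytes (1.39-fold, adjusted p = 0.0356), a call lost without adipocyte array 1 or 3 or stromo-vascular array 1 or 2 (adjusted p 0.0543 to 0.102) and for the mean of its 2 probe sets (0.187). Slc10a6, which carries sulfated steroids, was higher in intraabdominal adipocytes (2.93-fold, adjusted p = 1.69e-05) and did not pass in subcutaneous fat (adjusted p = 0.894). Slc27a4, a fatty acid transport protein, was higher in intraabdominal adipocytes too (1.55-fold, adjusted p = 0.0322), a call lost without adipocyte array 1 or 2 or stromo-vascular array 2 or 3 (adjusted p 0.0709 to 0.107).

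Of 11 carriers of nucleosides and nucleotide sugars tested, 1 was higher and 4 lower in subcutaneous adipocytes and 2 were called higher and 3 lower in intraabdominal adipocytes. Slc29a1, the equilibrative nucleoside transporter, was lower in both depots (3.63-fold and 2.38-fold), at 395, 377 and 372 in subcutaneous adipocytes against 1439, 1074 and 2133 in stromo-vascular cells; a dimmer probe set of this gene passed in neither depot (log2 0.14 and -0.41), and the mean of both gave -0.86 in place of -1.86 in subcutaneous and -0.83 in place of -1.25 in intraabdominal fat. Slc35b2, which carries the sulfate donor PAPS into the Golgi, was lower (1.61-fold and 1.33-fold). Its intraabdominal call was lost without adipocyte array 2 (adjusted p = 0.055) or stromo-vascular array 2 (0.059), and with median centring, where the log2 difference was -0.25 in place of -0.41 (0.171).

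Slc35e4 was higher in adipocytes (2.65-fold and 1.98-fold). In subcutaneous fat its log2 difference was 0.91 in place of 1.41 without stromo-vascular array 3, and in intraabdominal fat the call was lost without adipocyte array 3 or stromo-vascular array 2 or 3 (adjusted p 0.0631 to 0.0848). Slc35a2, which carries UDP-galactose (2.19-fold), and Slc35e1 (2.39-fold) were lower in subcutaneous adipocytes, the latter at a log2 difference of -0.76 in place of -1.25 without adipocyte array 1 and of -0.82 for the mean of its probe sets. Slc35b1 was lower in intraabdominal adipocytes (1.44-fold, adjusted p = 0.00153). Slc37a4, the glucose 6-phosphate carrier of the endoplasmic reticulum, was higher there (1.55-fold, adjusted p = 0.0447), a call lost without any adipocyte array or stromo-vascular array 1 or 3 (adjusted p 0.0549 to 0.169).

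Of 4 carriers that the family number places with vitamins, 1 was higher and 2 lower in subcutaneous adipocytes, and 1 was higher and 1 lower in intraabdominal adipocytes; of 5 placed with organic ions, 2 were higher in each depot. Slc46a1, the proton-coupled folate transporter of the latter class, read 602, 1067 and 679 in subcutaneous and 923, 1059 and 688 in intraabdominal adipocytes against 389.8, 232 and 106 and 131, 289 and 199 in stromo-vascular cells. It was higher in adipocytes with no overlap (3.10-fold, adjusted p = 0.00248 and 3.85-fold, adjusted p = 0.000647). The reduced folate carrier Slc19a1 was higher too (1.82-fold and 1.60-fold) on a probe set with the family suffix, and its second probe set gave a call of equal sign and larger size (log2 1.87 and 3.09, against 0.86 and 0.68). Slc23a2, a vitamin C transporter, was lower in subcutaneous adipocytes (2.06-fold, adjusted p = 0.000276), and Slc23a3, of the same family, was lower in intraabdominal adipocytes (1.64-fold, adjusted p = 0.011, or 0.0672 without stromo-vascular array 3). A second probe set of Slc23a3 did not pass in intraabdominal fat (log2 -0.55, adjusted p = 0.16).

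The phosphate carrier Slc20a1 was lower in subcutaneous adipocytes (3.0-fold, adjusted p = 1.05e-05) and did not pass in intraabdominal fat (adjusted p = 0.676). Slc22a17, a receptor for the iron-binding lipocalin, was higher in adipocytes in both depots (1.67-fold and 1.88-fold). Slc66a2, which no class held, was higher in subcutaneous adipocytes (1.38-fold, adjusted p = 0.0322), a call lost without adipocyte array 1 or any stromo-vascular array (adjusted p 0.0525 to 0.113). Of the monocarboxylate carriers, Slc16a8 was higher in intraabdominal adipocytes (3.59-fold, adjusted p = 0.00454) and Slc16a1, which carries lactate, passed in neither depot (adjusted p = 0.0683 and 0.685).

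Slc16a7, a monocarboxylate carrier with high affinity for pyruvate, was left out of the main fit by the filter on mean signal. It was described because of its adipocyte signal, so the gap between its arrays is no test. It read 456, 595 and 584 in subcutaneous and 569, 423 and 598 in intraabdominal adipocytes. In stromo-vascular cells it read 7.42, 8.20 and 9.15 in the subcutaneous and 26.8, 56.6 and 17.2 in the intraabdominal depot, on or under the level of the pseudocount on 5 of 6 arrays. The adipocyte and stromo-vascular arrays did not overlap in either depot. In the alternative fit with no filter on dim probe sets Slc16a7 was called between fractions in both depots.

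The comparison of depots within stromo-vascular cells called 17 solute carriers, 10 higher and 7 lower in the subcutaneous depot, or 18.5% of those tested. Over all probe sets tested 12.9% were called, 6.49% higher and 6.45% lower. The calls were spread over 10 classes, with 3 of the 7 lower genes among amino acid carriers and 3 of the 10 higher ones among metal carriers. Of the solute carriers 45 had arrays that did not overlap between depots, beside 37.3% of all probe sets. The medians were 0.10 for the solute carriers and 0.06 over all probe sets (log2). All 17 calls remained with the actin ratio as a covariate. That ratio was only 1.11 to 1.24 over the stromo-vascular arrays, so the covariate could change this comparison little.

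The cell mixture differed between these depots too. All 7 smooth muscle markers tested were higher in intraabdominal stromo-vascular cells, where their summed signal was 125740 to 151814 against 32679 to 34640 in the subcutaneous cells, and so were all 5 mesothelial markers tested (6879 to 7064 against 1087 to 1413). Of 11 macrophage markers 7 were higher in the intraabdominal cells and 1 lower (summed signal 44332 to 50797 against 26554 to 28412), while 6 of 9 endothelial markers were higher in the subcutaneous cells (3793 to 4712 against 1963 to 2575). Of 9 adipocyte markers 3 were higher in the subcutaneous cells and none lower (26305 to 32381 against 19143 to 21933). Of 8 preadipocyte and fibroblast markers 2 were higher there and none lower (236505 to 257715 against 168152 to 189573). The part of these cell types in the differences of the solute carriers was not tested.

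Slc1a6 showed the largest depot difference. The glutamate transporter was 7.16-fold higher in intraabdominal stromo-vascular cells (adjusted p = 1.73e-05), and as given above the 3 arrays of one depot lay far from those of the other. Slc7a5 read 1872, 1961 and 1634 in subcutaneous and 4706, 5412 and 5849.6 in intraabdominal stromo-vascular cells. All intraabdominal arrays were higher (2.88-fold, adjusted p = 9.72e-05). Slc1a4 followed with 1299, 939 and 1160.3 against 2469.6, 2112 and 2279.9, again without overlap (2.0-fold, adjusted p = 0.00442).

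Of the 18 genes of the amino acid response, 4 were called higher in the subcutaneous and 5 in the intraabdominal stromo-vascular cells. Among the latter were Asns (-0.66, adjusted p = 0.00161) and the serine synthesis enzyme Psat1 (-0.62, 0.00175) on the log2 scale. Cebpb, a factor of the response that also acts early in fat cell formation, was higher (0.91, 0.000165).

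Slc8a1, the sodium calcium exchanger known from heart and smooth muscle, read 911, 996 and 1082 in subcutaneous and 3687, 3039 and 3464 in intraabdominal stromo-vascular cells. The intraabdominal arrays were all higher (3.31-fold, adjusted p = 6.38e-05), and all 7 smooth muscle markers were higher there too. Slc8a1 has 3 probe sets, and the mean over them was too dim to be tested. It was also lower in adipocytes than in stromo-vascular cells, by 3.47-fold in subcutaneous and 5.26-fold in intraabdominal fat. Of the smooth muscle markers 3 were lower and 1 higher in subcutaneous adipocytes and 7 of 7 were lower in intraabdominal adipocytes. The part of smooth muscle cells in the differences of Slc8a1 was not tested.

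Higher in the intraabdominal stromo-vascular cells were further Slc4a2 (1.71-fold, adjusted p = 0.00449) and the mitochondrial carrier Slc25a11 (1.56-fold, adjusted p = 0.00397). Slc44a2 was 1.70-fold higher, at adjusted p = 0.0417, but leaving out any 1 of the 6 arrays ended this call (adjusted p 0.0877 to 0.144).

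Of the 15 metal carriers tested, 3 were called, Slc11a2, Slc39a4 and Slc30a3, all higher in the subcutaneous cells. The median log2 difference over the class was 0.03. Slc11a2, which carries ferrous iron across the plasma and endosomal membrane, read 2706, 2443 and 2704 in subcutaneous and 980.5, 1253 and 797 in intraabdominal stromo-vascular cells. The lowest subcutaneous array was well above the highest intraabdominal one (2.57-fold, adjusted p = 0.00037), and its second probe set gave a call of equal sign. Outside the metal class, Slc48a1, which moves heme out of the lysosome, read 6283, 6017 and 6413 against 3751, 3662 and 4125 (1.62-fold, adjusted p = 0.00057).

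Of the 10 other genes of iron and zinc handling, 5 were called higher and none lower in the subcutaneous cells. Mt2 read 100711 ± 8732 (SD, n = 3) in the subcutaneous and 16878 ± 2112 in the intraabdominal stromo-vascular cells (adjusted p = 7.91e-08), Mt1 read 44770.3 ± 1968 and 8011 ± 2319.6 (adjusted p = 1.93e-06), and Hmox1 read 69022 ± 6576 and 34499.7 ± 4083 (adjusted p = 0.000983). The last degrades the heme that Slc48a1 carries.

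Slc39a4, a zinc importer, was 1.91-fold higher in the subcutaneous cells (adjusted p = 0.00685) on a probe set whose suffix marks probes chosen under relaxed rules; its other probe set pointed the other way, and the mean of both did not pass (adjusted p = 0.509). Slc30a3, a vesicular zinc carrier, was 1.42-fold higher (adjusted p = 0.0345), a call lost without any subcutaneous array or intraabdominal array 2 or 3 (adjusted p 0.0772 to 0.155); the mean over its probe sets gave a log2 difference of 0.83 in place of 0.51.

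Slc20a1, the phosphate carrier, read 2075, 2045 and 1817 in subcutaneous and 1107, 916 and 910.0 in intraabdominal stromo-vascular cells, with no overlap (1.99-fold, adjusted p = 0.00388). Slc16a8 read 663, 434 and 459 against 169, 68.3 and 67.2; all subcutaneous arrays were higher (4.09-fold, adjusted p = 0.01). Slc5a6 was higher as well (2.30-fold, adjusted p = 0.0109), although both depots were low in this fraction, and the call was lost without subcutaneous array 3 (adjusted p = 0.0587) or intraabdominal array 2 (0.0516).

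Slc10a6, a carrier of sulfated steroids, read 3143, 3914 and 3282 in subcutaneous and 1619, 2113 and 1908 in intraabdominal stromo-vascular cells and was higher in the former (1.82-fold, adjusted p = 0.0119; 0.0615 without subcutaneous array 2 and 0.0525 without intraabdominal array 1). Slc44a1 was 1.89-fold higher (adjusted p = 0.0335), a call lost without any subcutaneous array or intraabdominal array 1 or 2 (adjusted p 0.0715 to 0.13), and with median centring (0.0632). Slc22a18, an organic cation carrier, was 1.78-fold higher (adjusted p = 0.0359), a call lost without any 1 of the 6 arrays (adjusted p 0.0775 to 0.125) and with median centring (0.0585) or quantile normalization (0.0644).

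Between the adipocytes of the depots 3 of 92 solute carriers were called, or 3.26%, all lower in subcutaneous adipocytes, beside 8.13% of all probe sets tested (3.97% higher, 4.16% lower). Of the solute carriers 20 had arrays that did not overlap between depots, beside 24.3% of all probe sets. The median log2 difference was -0.05 for the solute carriers and 0.07 over all probe sets. Markers of brown and thermogenic fat cells differed in the same comparison: all 4 tested were higher in subcutaneous adipocytes (median log2 2.95), where the summed signal of the 7 on the array was 32634 to 50543 against 3362 to 4169 in intraabdominal adipocytes. Their part in the differences of the solute carriers was not tested. All 3 calls were lost when the actin ratio, which was higher in the subcutaneous adipocytes, was a covariate. Over all probe sets the number called went from 707 to 124 under this covariate. The ratio did not overlap between these 2 groups (2.35 to 3.10 against 1.71 to 2.24), so depot and ratio cannot be told apart here. With arrays centred on their medians, which moved the median over all probe sets from 0.07 to -0.15, the count was 12, all lower in the subcutaneous cells, and with quantile normalization it was 5, with 1 higher and 4 lower. It was 8 without intraabdominal array 3, 6 without subcutaneous array 2 and 5 without subcutaneous array 3. The member with the largest depot difference in adipocytes was the fructose transporter Slc2a5 (log2 1.31 ± 0.51), which did not pass (adjusted p = 0.126).

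Slc31a1, the copper importer, read 2136, 3488 and 2693 in subcutaneous and 5855, 5008 and 4387 in intraabdominal adipocytes. The groups did not overlap (1.85-fold, adjusted p = 0.00547), and its second probe set gave a call of equal sign. With the actin ratio as a covariate its log2 difference was -0.73 in place of -0.88, with adjusted p = 0.267.

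Slc8a1 read 172, 304 and 321 in subcutaneous and 610.3, 580.5 and 644 in intraabdominal adipocytes, the former all lower (2.19-fold, adjusted p = 0.00481). It was the only member called in the same direction between depots in both fractions, beside 1.86% of all probe sets. Under the covariate its log2 difference was -0.84 in place of -1.13 (adjusted p = 0.3), and with only the adipocyte arrays in the fit adjusted p was 0.102. None of the 7 smooth muscle markers was called between the adipocytes of the depots. The part of smooth muscle cells in this difference of Slc8a1 was not tested.

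Slc10a6 read 3548, 3411 and 3079.8 in subcutaneous and 4974, 8273 and 4154 in intraabdominal adipocytes. The intraabdominal arrays were all higher, and array 2 of them stood apart from the other 2 (1.65-fold, adjusted p = 0.0449). Without that array the log2 difference was -0.44 in place of -0.73, and the call was lost there and without intraabdominal array 1 or any subcutaneous array (adjusted p 0.0725 to 0.17). With the actin ratio as a covariate the log2 difference was larger, -1.0, with adjusted p = 0.194. Over its alternatives adjusted p was 0.0107 to 0.194. Its depot difference was the opposite of that in stromo-vascular cells, the only such pair of calls among the solute carriers, beside 0.759% of all probe sets.

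**Figure D4:**
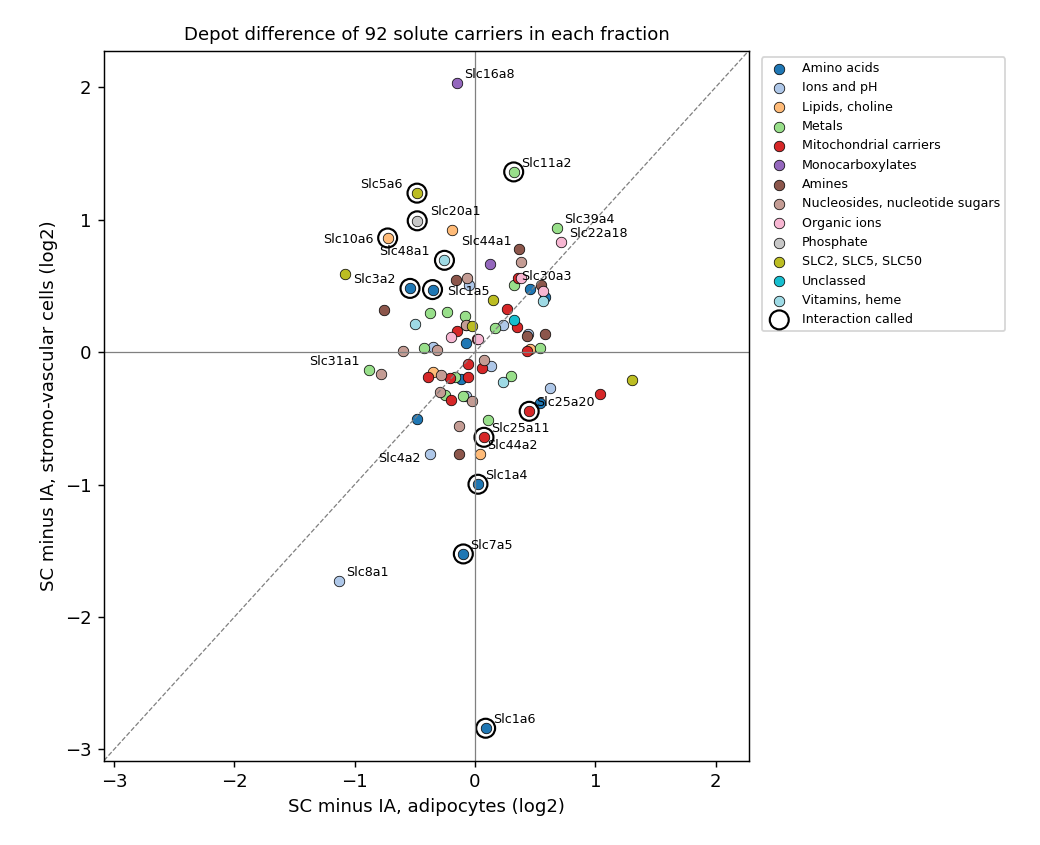
Depot difference, subcutaneous minus intraabdominal (log2), of the 92 solute carriers tested in adipocytes (horizontal) and in stromo-vascular cells (vertical), coloured by substrate class. Rings mark the 12 genes whose depot differences were called unequal, names mark every gene called between depots or ringed, and the dashed line marks equal differences; Slc1a6 lies at 0.09 and -2.84, and Slc8a1 at -1.13 and -1.73.

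Whether the depot difference itself differed between adipocytes and stromo-vascular cells was tested with the interaction term. It was called for 12 of 92 solute carriers (13%), 5 higher and 7 lower, beside 8.43% of all probe sets tested (3.90% higher, 4.53% lower). Higher means that the subcutaneous minus intraabdominal difference was greater in adipocytes. This split moved with scaling: 2 were called higher and 11 lower with median centring, and 4 higher and 9 lower with quantile normalization. Of the 12 calls 5 were amino acid carriers or their heavy chain, of 11 tested in that class.

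For Slc1a6 the interaction was 2.93 ± 0.43 (adjusted p = 0.000563), for Slc7a5 1.43 ± 0.28 (adjusted p = 0.00491) and for Slc1a4 1.02 ± 0.29 (adjusted p = 0.0434) on the log2 scale with standard errors. All of these were higher in intraabdominal than subcutaneous stromo-vascular cells, while their adipocyte arrays overlapped: Slc7a5 read 1074, 2030.0 and 1451 in subcutaneous and 1359.9, 1691 and 1696 in intraabdominal adipocytes. Slc1a4 read 1004, 1045 and 720.1 and 689, 1046 and 992. Its interaction was lost without any 1 of 9 of the 12 arrays, all but subcutaneous adipocyte array 3 and intraabdominal adipocyte arrays 2 and 3 (adjusted p 0.0521 to 0.118), and with median centring (0.0736) or quantile normalization (0.0541).

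Slc3a2 had an interaction of -1.02 ± 0.23 (adjusted p = 0.0108) and Slc1a5 of -0.83 ± 0.21 (adjusted p = 0.0266). In both genes every intraabdominal array lay above every subcutaneous one in adipocytes and below it in stromo-vascular cells, though no depot difference passed alone (adjusted p = 0.0544 and 0.0659 for Slc3a2, 0.163 and 0.0542 for Slc1a5). Slc3a2 and its partner Slc7a5 thus had interactions of opposite sign. That of Slc1a5 was lost without intraabdominal adipocyte array 1 or 2, subcutaneous stromo-vascular array 3 or intraabdominal stromo-vascular array 1 or 2 (adjusted p 0.0645 to 0.0766).

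The vitamin carrier Slc5a6 had an interaction of -1.68 ± 0.40 (adjusted p = 0.0169; 0.0545 without intraabdominal adipocyte array 2), and the steroid sulfate carrier Slc10a6 one of -1.59 ± 0.29 (adjusted p = 0.00311). The phosphate carrier Slc20a1 had -1.47 ± 0.28 (adjusted p = 0.00441): its adipocyte arrays, 682, 719 and 515 in the subcutaneous and 886, 718 and 1137 in the intraabdominal depot, overlapped at 1 value, and its stromo-vascular arrays did not. The heme carrier Slc48a1 had -0.95 ± 0.16 (adjusted p = 0.00144), with 2678, 2919.8 and 2653 in subcutaneous and 3399, 3207 and 3248 in intraabdominal adipocytes.

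Slc11a2, the iron carrier, had an interaction of -1.04 ± 0.29 (adjusted p = 0.0413), lost without any 1 of 10 of the 12 arrays, all but subcutaneous adipocyte array 1 and intraabdominal stromo-vascular array 2 (adjusted p 0.0533 to 0.105). Its adipocyte arrays read 1438, 1124 and 852 in the subcutaneous and 975, 824 and 856 in the intraabdominal depot and overlapped. A second probe set of Slc11a2 had an interaction of -1.34 (adjusted p = 0.00727). The depot difference in adipocytes was of opposite sign on the 2 probe sets (log2 0.32 and -0.32) and passed on neither. Of the 10 other genes of iron and zinc handling 5 had a called interaction, all lower, among them Mt2 (-2.57, adjusted p = 4.39e-06) and Hmox1 (-1.52, adjusted p = 0.00107).

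The mitochondrial carriers Slc25a20 (0.90 ± 0.21, adjusted p = 0.0147) and Slc25a11 (0.72 ± 0.19, adjusted p = 0.0266) had interactions of the other sign. For Slc25a20 every subcutaneous array lay above every intraabdominal one in adipocytes and below it in stromo-vascular cells, as given above. Slc25a11 read 3831, 4253 and 4141 in subcutaneous and 3652, 3676 and 4297 in intraabdominal adipocytes, which overlapped, and 2159.7, 2464 and 1964 in intraabdominal stromo-vascular cells, above the subcutaneous ones. Its interaction was lost without subcutaneous adipocyte array 2, intraabdominal adipocyte array 1 or 2, any subcutaneous stromo-vascular array or intraabdominal stromo-vascular array 2 (adjusted p 0.0519 to 0.074). Both lost the call with median centring (adjusted p = 0.059 and 0.115).

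**Figure D5:**
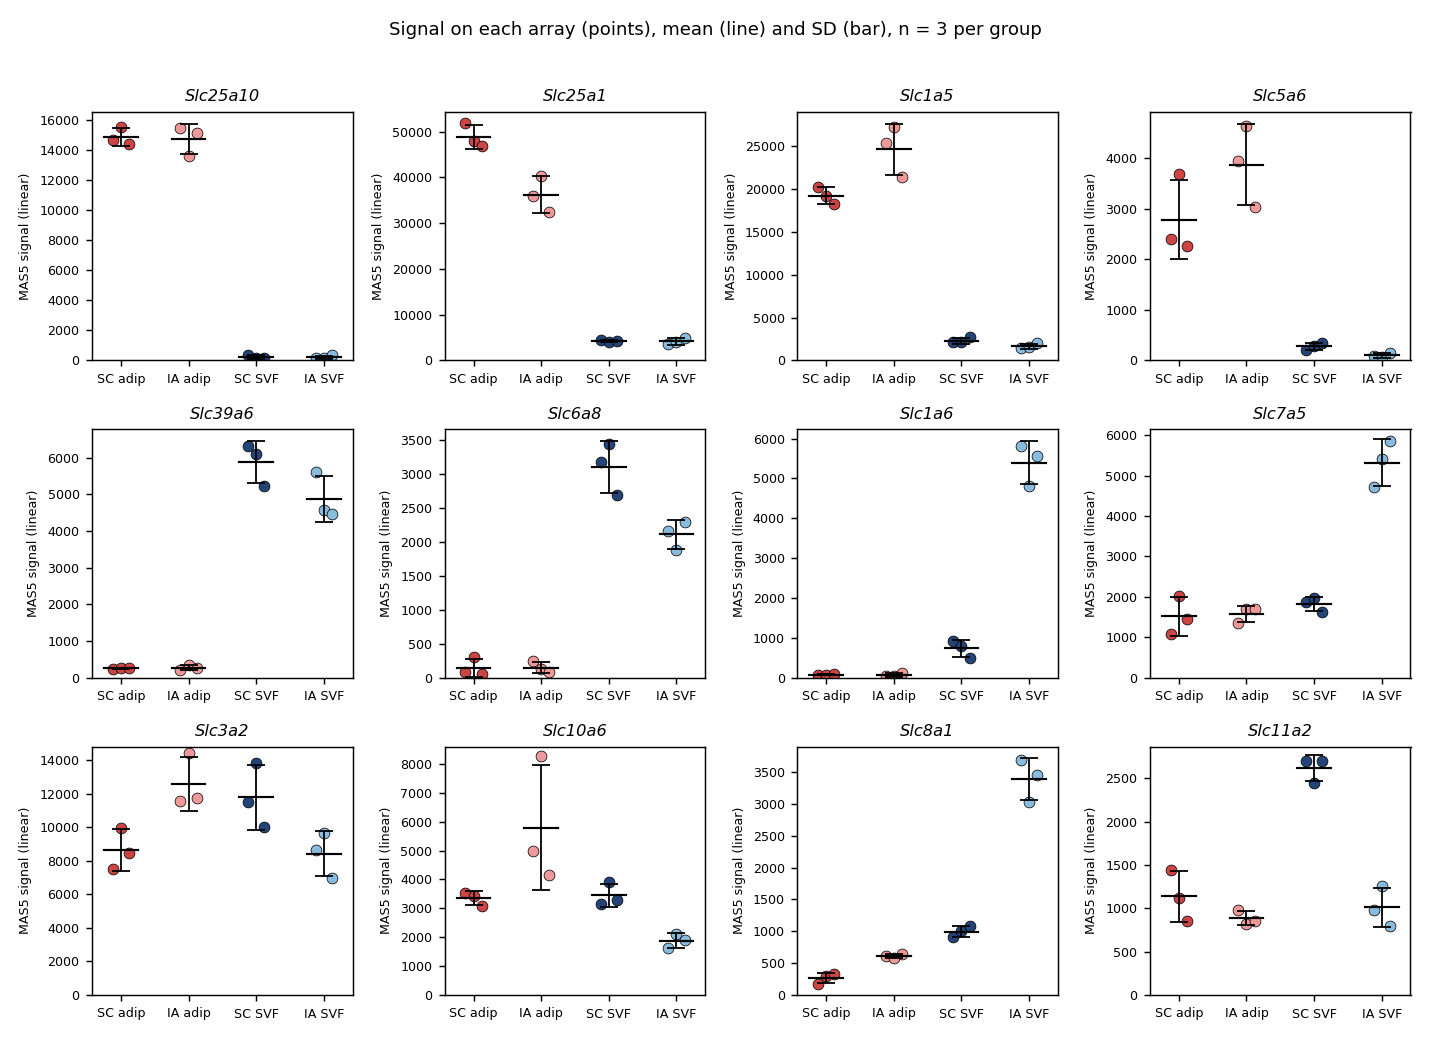
MAS5 signal (vertical axis, linear, from 0) of 12 solute carriers on each array (points) in the 4 groups (horizontal axis: subcutaneous, SC, and intraabdominal, IA, adipocytes, adip, and stromo-vascular cells, SVF), with the mean (line) and SD (bar) of the 3 arrays. The first 4 genes are high in both adipocyte groups, Slc39a6 and Slc6a8 in both stromo-vascular groups, Slc1a6 and Slc7a5 in intraabdominal stromo-vascular cells and Slc11a2 in subcutaneous stromo-vascular cells.

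In all, 69 of the 92 solute carriers tested were called in at least 1 comparison of 2 groups and 23 in none. The latter included 5 of 15 mitochondrial carriers, 4 of 15 metal carriers, 4 of 7 amine carriers, the amino acid carriers Slc38a5 and Slc7a2 and 4 of 11 nucleotide sugar carriers, among them Slc35a1, which brings CMP-sialic acid into the Golgi; the others were Slc35c2, Slc35d1 and Slc35g3. The carnitine carrier Slc22a5 and the urate carrier Slc22a12 also passed nowhere. A p that missed the threshold does not show that such a gene was equal between groups: log2 differences of 2 groups had a standard error of 0.24 in the median. Of the 50 solute carriers under the signal limit 12 were bright enough to be tested, and 1 of them was called, Slc38a4, an amino acid carrier, which was lower in intraabdominal adipocytes than in stromo-vascular cells (log2 -0.74).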

How the data were processed

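RNA from 4 groups of mouse fat cells was hybridised to 12 Affymetrix arrays of 1 type, with 3 arrays in each group. The deposited values are intensities, 1 MAS5 signal per probe set and array, made and scaled by the authors per the submitters' processing notes; the version of MAS5 is not given in the sources used here, and detection calls were not used here. The mean signal of each array after trimming 2% at both ends was the same on all arrays within a ratio of 1.00017, so the arrays were taken as scaled to 1 target and were not normalized again. MAS5 signal of a dim probe set is noisy, and the number of arrays limits the precision. The lowest correlation of log2 values between arrays of a group was 0.924 and no pair of arrays was identical.

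Probe sets were named through GEO's platform annotation: 10833 of 12422 carried 1 symbol, 396 several and 1193 none, and 66 control probe sets were left out. Signals were tested as log2(signal + 40.09), where 40.09 is the 10th percentile of all values, after the 30% of probe sets with the lowest mean were left out. A model of 4 group means was fitted to the remaining 8695 probe sets with limma 3.58.1 under R 4.3.3 (functions lmFit, contrasts.fit and eBayes, whose prior variance followed the intensity), with 8 residual degrees of freedom. Benjamini-Hochberg adjustment ran over all probe sets tested, and every adjusted p in the text is limma's. Contrasts were the depot difference in each fraction, the fraction difference in each depot and the difference of the depot differences. The fit was also run on simulated data with independent noise and few changed probe sets. That setting is unlike the comparisons of fractions, and nothing is concluded from it here.

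The members, substrate classes, marker lists and gene lists were chosen with earlier results of these data known. Named members were called members whose 3 against 3 arrays did not overlap, up to 15 per direction and comparison by size, every member called in the interaction, and the 3 members of each class with the highest mean signal; further members are named by class for completeness and were chosen after their values were seen. Genes of other lists were the 4 with the smallest p in each list and comparison. Alternatives were other pseudocounts, filters, normalizations and variance models, a fit of only the groups compared, the replicate number as a block, the mean over all probe sets of a gene, the actin ratio as a covariate and leaving out each array. The labels do not say that replicate numbers pair the samples, so the main fit had no block. Promoters came from RefSeq's table for build GRCm38.p6, which held 75 of the 93 genes. Tables and figures were made with Python 3.11.15, pandas 2.3.3, numpy 2.4.6 and matplotlib 3.10.9.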

Additional observations from a re-analysis of the deposited data

Results flagged for a closer look

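For 12 solute carriers the difference between depots was itself unequal in adipocytes and in stromo-vascular cells by limma's interaction term (adjusted p under 0.05). The values below are the subcutaneous minus intraabdominal difference in adipocytes minus the same in stromo-vascular cells, on the log2 scale. In 7 genes it was below 0: Slc5a6, the multivitamin carrier (-1.68), Slc10a6, the sulfated steroid carrier (-1.59), Slc20a1, the phosphate carrier (-1.47), Slc11a2, the iron carrier (-1.04), Slc3a2, the amino acid exchanger heavy chain (-1.02), Slc48a1, the heme carrier (-0.95), and Slc1a5, the glutamine carrier (-0.83). In 5 genes it was above 0: Slc25a11, the oxoglutarate carrier (0.72), Slc25a20, the acylcarnitine carrier (0.90), Slc1a4, the alanine, serine and cysteine carrier (1.02), Slc7a5, the large neutral amino acid exchanger (1.43), and Slc1a6, the glutamate carrier (2.93). Only for Slc10a6 were both depot differences called, with opposite signs. Markers of other cells moved with the same term: all 4 brown and thermogenic markers tested were called above 0 (median log2 2.70), as were 5 of 7 smooth muscle and 4 of 5 mesothelial markers. Of 11 macrophage markers 6 were called above and 1 below 0, and of 9 endothelial markers 3 were called below 0. Their part in these differences was not tested.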

How the results depend on the processing

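Over all alternatives in which a gene could be tested, 45 of 56 calls between fractions in subcutaneous fat, 36 of 47 in intraabdominal fat, 10 of 17 between depots in stromo-vascular cells, 6 of 12 interactions and 0 of 3 between depots in adipocytes were kept. The count between depots in adipocytes was the least stable: 3 became 7 (3 higher, 4 lower) with the dimmest 50% of probe sets left out, 12 with arrays centred on their medians and 5 with quantile normalization. With the actin ratio as a covariate it became 0 in limma (14 at an unadjusted p under 0.05, against 26 without it), and leaving out single arrays gave 2 to 8. The 17 calls between depots in stromo-vascular cells became 27 (16 higher, 11 lower) with array quality weights and 12 to 15 when an array was left out. All other counts stayed within 1.5 times of those reported; leaving out an array gave 51 to 54 and 41 to 49 between fractions in subcutaneous and intraabdominal fat and 8 to 14 interactions. The direction of 1 called difference reversed: that of Slc38a10 between fractions in subcutaneous fat was 0.12 for the mean over its probe sets; the cause was not tested. Besides the losses given with each gene, calls were also ended by other settings. No filter on dim probe sets ended those of Slc11a2 and Slc1a4 (interaction), Slc10a6 in adipocytes, Slc22a18 and Slc44a2 (depots). Between fractions it ended those of Slc25a45, Slc30a9, Slc37a4 and Slc4a1. A variance without the intensity trend ended those of Slc11a2, Slc1a4, Slc1a5 and Slc25a11 (interaction), Slc10a6 in adipocytes, Slc30a3, Slc44a1 and Slc44a2 (depots). Between fractions it ended those of Slc25a45, Slc3a2 and Slc4a1. Array quality weights ended Slc10a6 (adipocytes), Slc25a45, Slc30a9 and Slc37a4. The replicate block ended Slc30a3, Slc44a2 and Slc1a4 (interaction), and a pseudocount of 1 ended Slc44a2 (depots) and Slc25a45. A fit of only the groups compared ended Slc10a6 (adipocytes) and Slc4a1 (intraabdominal fat). Quantile normalization ended Slc10a6 (adipocytes) too.

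The labels do not say that replicate numbers pair the samples. Deviations of same-numbered arrays correlated by -0.09 to 0.11 over 18 pairs, and 2 of 12 arrays correlated best with their own number. With 3 arrays per group these values cannot show whether same-numbered arrays shared a pool of mice. With the replicate number as a block the counts were 4 and 16 between depots in adipocytes and stromo-vascular cells, 56 and 47 between fractions in subcutaneous and intraabdominal fat, and 11 interactions.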
